A study of Mus musculus with 2 samples.

Results

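The genes described here are 10 that encode proteins known to be induced by estrogen in the epithelium of the mouse uterus, found by symbol among the 31053 genes of each library: Ltf, Lcn2, Muc1, Muc4, Clca1, Padi1, Padi2, Sprr2f, Sprr1a and Gjb2. All 10 were listed in both files. Single cells came from whole uterus on gestational day 4, in 1 library labelled Mettl14 f/f (alleles flanked by recombination sites) and 1 labelled Mettl14 d/d (deleted alleles). Mettl14 encodes a partner of the enzyme that methylates adenosine in RNA. The driver of the deletion, the strain, the age and the number of animals behind each library are not given in the sources used here. There is 1 library per genotype, so differences were not tested across samples, and every 95% interval covers counting error only.

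Estrogen reaches the uterine epithelium through its receptor ESR1, in epithelial cells and in the stroma beneath them, and around estrus it brings on growth, secretion and a surface coat. Lactotransferrin (Ltf) and lipocalin 2 (Lcn2) are secreted and keep iron from bacteria. Muc1 and Muc4 are membrane-bound mucins of the apical surface, and Clca1 is a secreted protein linked to mucus. Padi1 and Padi2 turn arginine into citrulline in proteins, the small proline-rich proteins Sprr1a and Sprr2f are precursors of the cross-linked envelope of squamous cells, and Gjb2 is connexin 26, a gap junction subunit. By the time of receptivity progesterone opposes much of this programme in luminal cells, the layer that meets the embryo, while glands lie beneath it.

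Epithelial cells were those whose highest share of detected markers was epithelial, with at least 6 of 12 markers. There were 184 in the f/f library (2.59% of its cells) and 138 in the d/d library (2.31%). In f/f, 72 were luminal and 95 glandular by their marker UMIs (unique molecular identifiers, each 1 counted RNA molecule), and 17 were neither. In d/d, 9 passed the luminal rule, 84 the glandular rule and 45 neither, so the d/d epithelium was taken whole. Its label held only in part: the 9 luminal markers summed to 347 CPM (a gene's UMIs over all UMIs of the set, on the usual CPM scale), against 9202 in f/f luminal cells and 460 in f/f glandular cells. The 8 glandular markers summed to 1089 CPM, against 7356 in f/f glandular cells and 50.6 in f/f luminal cells. Of these, Foxa2 (153 CPM against 173 in f/f glandular cells), Cxcl15 (631 against 332) and Aldh1a1 (72.2 against 19.4) were present. Spink1 stood at 227 against 6570, Ttr at 4.83 against 227 and Guca2b at 0.690 against 5.44. Prss28 and Prss29 were at 0 against 16.3 and 12.4. A difference of d/d from either f/f set therefore cannot be told apart from a difference in the kind of epithelial cell. Of 8 markers of stratified epithelium, Krt5, Krt14, Krt13, Krt6a and Ivl were at 0 in all 3 sets, and Trp63 and Dsg3 had 2 UMIs each, in f/f luminal cells. Lor, which encodes a protein of the cornified envelope, had 0 UMIs in f/f luminal, 10 in f/f glandular (7.77 CPM) and 63 in d/d cells (14.5 CPM). Mettl14 itself had 48 UMIs in f/f epithelium (19.3 CPM) and 19 in d/d epithelium (4.37 CPM), a ratio of 0.226 (95% interval 0.126 to 0.392).

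The sets differed in depth and in cycling. The summed UMIs were 1066724 in f/f luminal, 1287233 in f/f glandular and 4347251 in d/d epithelial cells, with medians of 10951, 9892 and 21426 per cell. A UMI of Mki67, Cdk1 or Ube2c, genes of dividing cells, was found in 15.3%, 9.47% and 47.1% of cells. These shares were not thinned, so they also depend on depth. In CPM, which is scaled to depth, Mki67 stood at 8.44, 2.33 and 36.8, Cdk1 at 2.81, 3.11 and 42.6, and Ube2c at 24.4, 3.11 and 92.2. Top2a, another gene of dividing cells, went the other way, at 131, 98.7 and 82.4 CPM. The 9 stromal markers summed to 457, 481 and 80.5 CPM. The part of depth and cycling in the levels below was not tested beyond the alternatives given, and shares of cells are also given after thinning each cell to 5000 UMIs, which left 66, 91 and 127 cells. The libraries had 8 barcodes in common, none of them in an epithelial cell.

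The starts of 3 genes are shown: Ltf as the classical estrogen marker, Sprr2f as the gene lower in d/d than in f/f luminal cells, and Sprr1a as a gene found in 31 d/d and 2 f/f epithelial cells. Each sequence is the 250 bases before the RefSeq start (GRCm38.p6), 5′ to 3′ on the gene's strand. Capitals mark an estrogen response element half-site (GGTCA, or TGACC on the other strand), an AP-1 site (TGANTCA, which reads the same on both strands) or a TATA box (TATAAA).
Ltf, chr9:111019042-111019291, plus strand: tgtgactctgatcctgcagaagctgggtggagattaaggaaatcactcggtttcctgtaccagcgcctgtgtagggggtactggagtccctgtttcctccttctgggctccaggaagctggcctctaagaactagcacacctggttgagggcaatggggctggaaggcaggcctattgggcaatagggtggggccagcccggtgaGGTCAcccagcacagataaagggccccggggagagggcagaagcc
Sprr2f, chr3:92364937-92365186, plus strand: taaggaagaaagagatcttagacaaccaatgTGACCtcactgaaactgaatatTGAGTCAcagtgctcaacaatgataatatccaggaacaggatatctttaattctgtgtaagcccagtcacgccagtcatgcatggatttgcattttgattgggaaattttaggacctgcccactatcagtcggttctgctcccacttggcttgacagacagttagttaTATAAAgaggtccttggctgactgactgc
Sprr1a, chr3:92485882-92486131, minus strand: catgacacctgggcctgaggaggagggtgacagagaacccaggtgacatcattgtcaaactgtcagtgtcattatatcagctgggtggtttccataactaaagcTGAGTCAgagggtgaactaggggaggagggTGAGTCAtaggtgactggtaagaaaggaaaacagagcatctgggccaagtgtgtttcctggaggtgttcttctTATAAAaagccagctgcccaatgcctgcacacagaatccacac

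Sprr1a held 2 AP-1 matches, 146 and 116 bases before its start at their far ends, and Sprr2f held 1 at 197 bases. Of 32851 RefSeq promoters cut to the same length, with 1 chromosome left out, 6.75% had an AP-1 match. A half-site stood 45 bases before the Ltf start, 219 before that of Sprr2f and 191 before that of Gjb2, a motif found in 35.2% of promoters. The full element (GGTCA, any 3 bases and TGACC, so that it contains the half-site) was in none of the 9 windows that could be read. It was in 0.0639% of the 32851 promoters. TATAAA was in the windows of Muc1, Muc4, Sprr2f and Sprr1a, and on 1 strand or the other in 12.4% of promoters. These are matches of letters only. Sprr2f (chromosome 3, 92365187 to 92366442, GRCm38) and Sprr1a (92483952 to 92485895) both lie in the epidermal gene cluster, 117509 bases apart, and Padi1 and Padi2 lie 60565 bases apart on chromosome 4.

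Across the set, d/d epithelial cells were higher than f/f cells of both kinds for Ltf, Lcn2, Padi1, Sprr1a and, on few counts, Muc4. Padi2 and Gjb2 each resembled 1 kind of f/f cell: Padi2 was near the glandular level and Gjb2 at the luminal level. Sprr2f was below the luminal level and at the glandular one. A gene counted as higher or lower at a 2-fold CPM ratio with at least 20 UMIs over both sides, which 9 of the 10 genes had and Clca1 had not. Over f/f luminal cells 6 of the 9 were higher and 1 lower, where 15.9% of all genes were higher and 14.5% lower. Over f/f glandular cells 6 were higher and 0 lower, where 10.1% of all genes were higher and 11.0% lower. All 6 genes higher over luminal cells had under 20 f/f luminal UMIs, so they passed the minimum only with their d/d UMIs. Over glandular cells this held for Muc4, Lcn2, Sprr1a and Gjb2. The counts of higher genes are therefore partly set by the minimum, which was the same for all genes. Muc4 was counted in both comparisons although both its intervals include 1. The median log2 ratio of the 9 was 1.67 over luminal cells, beside -0.01 for 10378 genes, and 1.42 over glandular cells with Lcn2 set at its bound, beside -0.13 for 10363 genes. Against all f/f epithelial cells 5 were higher and 0 lower (8.71% and 13.7% of all genes), and in cells without cycling-gene UMIs 3 were higher. In those cells Ltf fell under 2-fold, at a log2 ratio of 0.88. Muc4 was at 1.43 or more in each of 11 other settings, so it left the count through the minimum of UMIs. These 3 comparisons share the d/d cells, and the genes were chosen with earlier results of these data known.

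**Figure D1:**
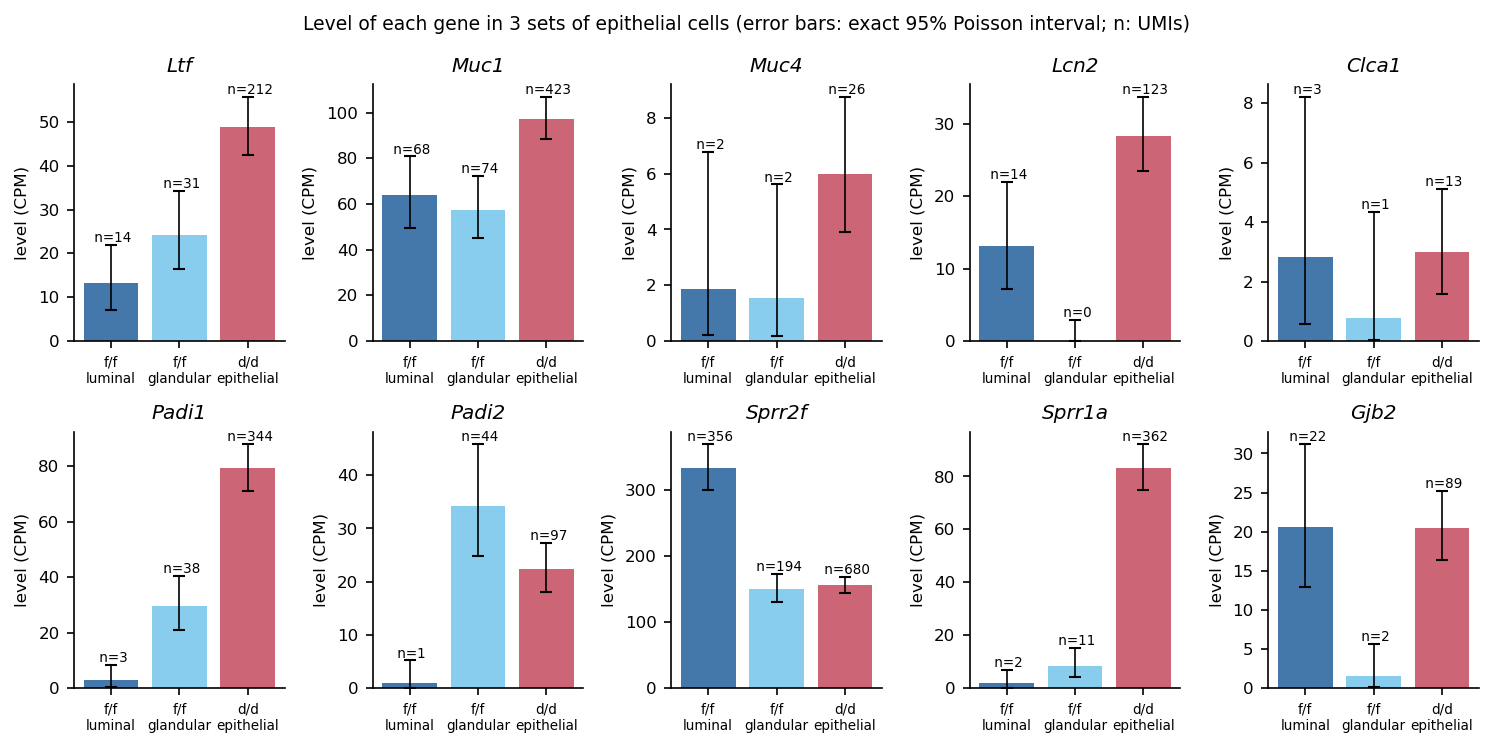
Level of each of the 10 genes in CPM (vertical axes, each from 0) in f/f luminal, f/f glandular and d/d epithelial cells; bars are summed UMIs over the set's total, lines are exact 95% Poisson intervals and n is the number of UMIs. Padi1 and Sprr1a stand highest in d/d (79.1 and 83.3 CPM), Sprr2f in f/f luminal cells (334 CPM) and Padi2 in f/f glandular cells (34.2 CPM).

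Ltf, the classical estrogen marker of this tissue, gave 14 UMIs in f/f luminal cells (13.1 CPM, 7.18 to 22.0), 31 in f/f glandular cells (24.1 CPM, 16.4 to 34.2) and 212 in d/d epithelial cells (48.8 CPM, 42.4 to 55.8). The d/d interval lay above both others. The ratio of d/d was 3.72 over luminal cells (2.17 to 6.91) and 2.02 over glandular cells (1.38 to 3.06), the second of them at the edge of the threshold. One f/f luminal cell held 8 of the 14 UMIs, and without the richest cell on each side the log2 ratio over luminal cells went from 1.89 to 3.004. With cells that had no UMI of the 3 cycling genes, the log2 ratio was 1.23 over luminal and 0.78 over glandular cells, the latter under 2-fold. Within d/d epithelium Ltf stood at 83.8 CPM in the 9 cells with luminal markers (53.7 to 125), 1 of which held 14 of their 24 UMIs. It stood at 49.0 in the 84 with glandular markers and 34.4 in the rest. After thinning, 3.03% of f/f luminal, 11.0% of f/f glandular and 18.9% of d/d cells had a UMI. The glandular and d/d intervals of this share overlapped (5.40 to 19.3% and 12.5 to 26.8%), and the luminal one (0.369 to 10.5%) lay below that of d/d. Of stromal cells, which should lack the gene, 0.129% of f/f and 0.118% of d/d ones had a UMI before thinning, at median depths of 6612 and 7029 UMIs.

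Lcn2 had 14 UMIs in 7 f/f luminal cells (13.1 CPM, 7.18 to 22.0), 0 in f/f glandular cells and 123 in 47 d/d cells (28.3 CPM, 23.5 to 33.8). In f/f glands 0 of 95 cells had a UMI, which allows a share of cells with a UMI of up to 3.16% (3 counts of 95) and sets no limit on cells that express the gene. The d/d level was 2.16 times the luminal one (1.24 to 4.06) and at least 12.1-fold higher than the glandular one, with the 0 set to 3 UMIs over the set. The 9 d/d cells with luminal markers held 38 of the 123 UMIs (133 CPM, 93.9 to 182), 30 of them in 1 cell, and the 84 with glandular markers stood at 20.9 CPM (16.2 to 26.4). With only the latter, the log2 ratio over luminal cells was 0.67, under 2-fold, in place of 1.11. Of 8 markers of neutrophils, which also make Lcn2, 2, 0 and 4 were detected in the 3 epithelial sets, summing to 1.87, 0 and 3.22 CPM. In d/d, 1 cell held 8 UMIs of these markers. Cells were chosen for epithelial markers, so low sums are partly built in, and a neutrophil source was not tested.

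Muc1, which keeps the luminal surface from adhering, gave 68 UMIs in f/f luminal cells (63.7 CPM, 49.5 to 80.8), 74 in f/f glandular cells (57.5 CPM, 45.1 to 72.2) and 423 in d/d cells (97.3 CPM, 88.2 to 107). The 2 f/f levels overlapped, with a luminal over glandular ratio of 1.11 (0.786 to 1.56), and the d/d level lay above both. Its ratio was 1.53 over luminal (1.18 to 2.00) and 1.69 over glandular cells (1.32 to 2.20), short of 2-fold. After thinning 27.3%, 27.5% and 40.2% of cells had a UMI, the highest shares of the 10 genes in f/f glandular and d/d cells, while in f/f luminal cells Sprr2f was ahead (30.3%). The intervals of the Muc1 shares overlapped (17.0 to 39.6%, 18.6 to 37.8% and 31.6 to 49.2%). Its d/d level differed by less than the counting error between marker classes (90.8 CPM with luminal markers, 99.3 with glandular markers, 91.2 with neither).

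Muc4, a larger mucin with an EGF-like part, was at the limit of detection: 2 UMIs in f/f luminal cells (1.87 CPM), 2 in f/f glandular cells (1.55 CPM) and 26 in 21 d/d cells (5.98 CPM, 3.91 to 8.76). The ratio was 3.19 over luminal (0.799 to 27.7) and 3.85 over glandular cells (0.964 to 33.5), and both intervals include 1. Against all 184 f/f cells, with 4 UMIs, it was 3.72 (1.29 to 14.7). Clca1 had 3, 1 and 13 UMIs (2.81, 0.777 and 2.99 CPM), too few for a call, and no difference was detectable at this depth.

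Padi1 had 3 UMIs in f/f luminal cells (2.81 CPM, 0.580 to 8.22), 38 in f/f glandular cells (29.5 CPM, 20.9 to 40.5) and 344 in d/d cells (79.1 CPM, 71.0 to 87.95). The 3 intervals did not overlap: luminal cells were lowest, glands higher and d/d epithelium highest. The ratio was 28.1 over luminal (9.55 to 137) and 2.68 over glandular cells (1.91 to 3.85). Over luminal cells the log2 ratio, 4.81, was 6.81 with epithelial cells taken from clusters and 6.34 without the richest cell on each side. In d/d it was at 85.6 CPM in the 84 cells with glandular markers and 70.1 in the 45 with neither. In the 9 with luminal markers it was at 27.9 (12.1 to 55.1), with 6 of 8 UMIs in 1 cell. After thinning 1.52%, 14.3% and 30.7% of cells had a UMI, against 0.424% of f/f stromal and 0.520% of d/d stromal cells. Unlike those of the levels, the glandular and d/d intervals of this share overlapped slightly (7.83 to 23.2% and 22.8 to 39.5%).

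Padi2, encoded near it on chromosome 4, followed another order: 1 UMI in f/f luminal cells (0.937 CPM), 44 in f/f glandular cells (34.2 CPM, 24.8 to 45.9) and 97 in d/d cells (22.3 CPM, 18.1 to 27.2). It too was nearly absent from luminal cells, with a luminal over glandular ratio of 0.0274 (0.000679 to 0.161). The d/d level was 23.8 times the luminal one (4.17 to 950) but 0.653 times the glandular one (0.453 to 0.955), within 2-fold. With epithelial cells taken from clusters, the log2 ratio over luminal cells was 3.07 in place of 4.57. Over f/f glands Padi1 and Padi2 therefore stood on opposite sides of 1. Padi4, another enzyme of the family, had 10 UMIs over all f/f epithelial cells (4.02 CPM) and 14 over the d/d ones (3.22 CPM). Its d/d over f/f ratio was 0.801 (0.331 to 2.02). Over f/f luminal cells alone, where Padi4 had 9 UMIs (8.44 CPM), the ratio was 0.382 (0.154 to 0.9997). That counted as lower, with an interval that barely leaves out 1.

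**Figure D2:**
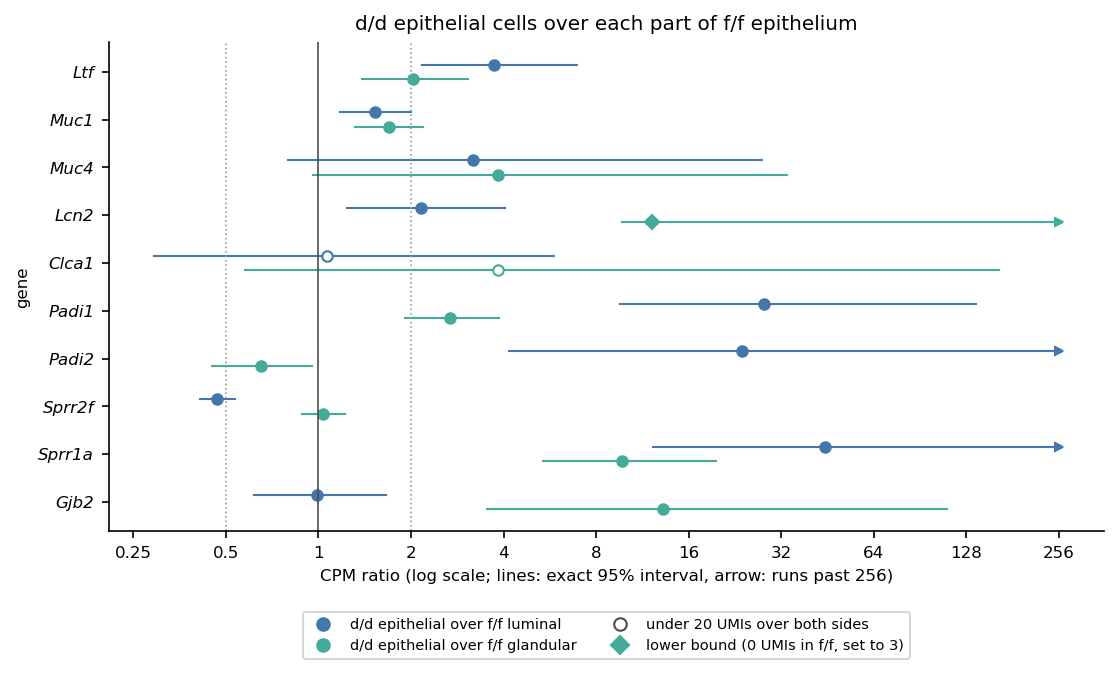
CPM ratio of d/d epithelial cells over f/f luminal (blue) and f/f glandular cells (green) on a log2-spaced axis; lines are exact 95% intervals, dotted lines mark 2-fold either way, and open points had under 20 UMIs over both sides. Ltf, Muc4, Lcn2, Padi1 and Sprr1a lie past 2-fold in both comparisons, Padi2 only over luminal cells (23.8) and Gjb2 only over glandular cells (13.2).

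Sprr2f gave 356 UMIs in 28 f/f luminal cells (334 CPM, 300 to 370), 194 in 31 f/f glandular cells (151 CPM, 130 to 173) and 680 in 45 d/d cells (156 CPM, 145 to 169). It was the only one of the 9 that was lower in d/d than in f/f luminal cells, at 0.469 (0.412 to 0.534), and its d/d level matched the glandular one within counting error, at 1.04 (0.884 to 1.22). Its UMIs came from few cells: the richest 10% of cells held 74.4% of them in f/f luminal, 82.0% in f/f glandular and 80.3% in d/d cells, so the counting intervals are narrower than the spread between cells. The luminal difference was under 2-fold in 6 of 12 other settings, with a log2 ratio of -0.71 for epithelial cells taken from clusters and -0.87 without the richest cell on each side, in place of -1.09. Over glandular cells its log2 ratio lay between -0.64 (d/d cells with glandular markers) and 0.87 (mean of the cells' CPM), so no direction can be given there. In d/d it was at 604 CPM (518 to 701) in the 9 cells with luminal markers, 1 of which held 78 of their 173 UMIs. It was at 96.5 (86.2 to 108) in the 84 with glandular markers and 249 (214 to 287) in the rest. Its relatives Sprr2a3, Sprr2b, Sprr2d and Sprr2e had at most 4 UMIs each in either epithelium. These genes are near-identical copies, and how reads that match several of them bear on the Sprr2f counts was not tested.

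Sprr1a had 2 UMIs in 1 f/f luminal cell (1.87 CPM, 0.227 to 6.77), 11 in 1 f/f glandular cell (8.55 CPM, 4.27 to 15.3) and 362 in 31 d/d cells (83.3 CPM, 74.9 to 92.3). The ratio was 44.4 over luminal (12.2 to 368) and 9.74 over glandular cells (5.38 to 19.7), and all glandular UMIs behind the second were in that 1 cell. Without the richest cell on each side the log2 ratio over all f/f cells was 6.498 in place of 3.99. With doublets kept, that over luminal cells was 4.53 in place of 5.47, and by the mean of the cells' CPM it was 7.47. In d/d too it was uneven: the richest 10% of cells held 89.5% of the UMIs, and the highest cell reached 3823 CPM. Each marker class held some: 73.4 CPM (45.4 to 112) in cells with luminal markers, 75.0 (66.0 to 85.0) with glandular markers and 123 (99.2 to 151) with neither. Of the 21 UMIs in cells with luminal markers, 17 were in 1 cell. After thinning 0%, 1.10% and 13.4% of cells had a UMI. Stromal cells of both libraries had 0 UMIs of it.

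**Figure D3:**
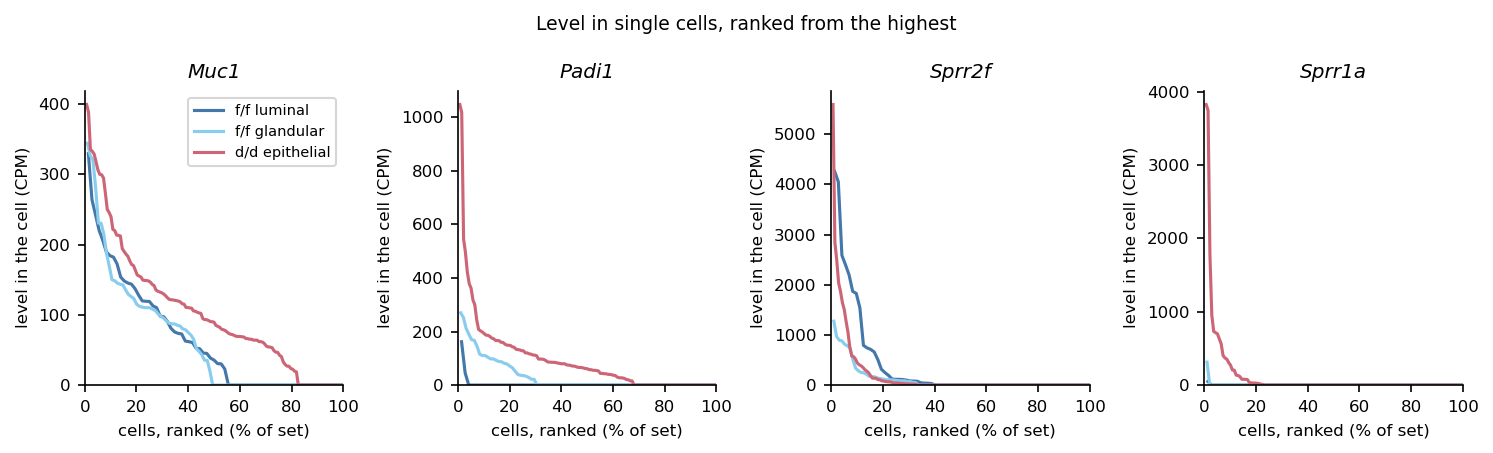
CPM of Muc1, Padi1, Sprr2f and Sprr1a in single cells (vertical axes, from 0), with the cells of each set ranked from the highest along the horizontal axis as percent of the set; a line is 1 set. Muc1 declines gradually and is found in 81.9% of d/d cells, while Sprr2f and Sprr1a drop steeply, with UMIs in 32.6% and 22.5% of d/d cells.

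Gjb2 had 22 UMIs in f/f luminal cells (20.6 CPM, 12.9 to 31.2), 2 in f/f glandular cells (1.55 CPM, 0.188 to 5.61) and 89 in d/d cells (20.5 CPM, 16.4 to 25.2). Its f/f pattern was opposite to that of Padi2, with a luminal level 13.3 times the glandular one (3.26 to 116). The d/d level was 0.993 times the luminal one (0.617 to 1.66) and 13.2 times the glandular one (3.54 to 110). The 84 d/d cells with glandular markers stood at 21.8 CPM (17.0 to 27.4), and the 9 with luminal markers at 17.5 (5.67 to 40.8). The match to luminal cells depends on how cells are averaged: by the mean of the cells' CPM, in which shallow cells weigh as much as deep ones, the log2 ratio was -1.17 in place of -0.01. Gja1, another connexin gene, had 27 UMIs over all f/f (10.9 CPM) and 28 over d/d epithelial cells (6.44 CPM). Its d/d over f/f ratio was 0.593 (0.337 to 1.05).

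Between the 2 kinds of f/f cell, 6 of the 10 genes had at least 20 UMIs. Sprr2f (2.21, 1.85 to 2.65) and Gjb2 were higher in luminal cells, where 10.3% of all genes were, and Padi1 (0.0953, 0.0188 to 0.30) and Padi2 were lower, as were 12.5% of all genes. Ltf (0.545, 0.268 to 1.06) and Muc1 were within 2-fold, with intervals that include 1. With epithelial cells taken from clusters, the Sprr2f log2 ratio was 0.47 in place of 1.15, under 2-fold. Lcn2 had under 20 UMIs, with 14 luminal UMIs and 0 glandular.

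Padi2 and Gjb2, which marked different kinds of f/f cell, were both seen in 22 of 138 d/d cells, where 44 had Padi2 and 54 had Gjb2. Sprr2f and Sprr1a were both seen in 15, where 45 had the first and 31 the second. Deep cells show more genes: in a single thinning to 5000 UMIs these overlaps were 0 and 4 of 127 cells. In that thinning 47.0% of f/f luminal, 43.96% of f/f glandular and 17.3% of d/d cells had a UMI of none of the 10 genes, and 1.52%, 8.79% and 11.0% had at least 3.

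**Figure D4:**
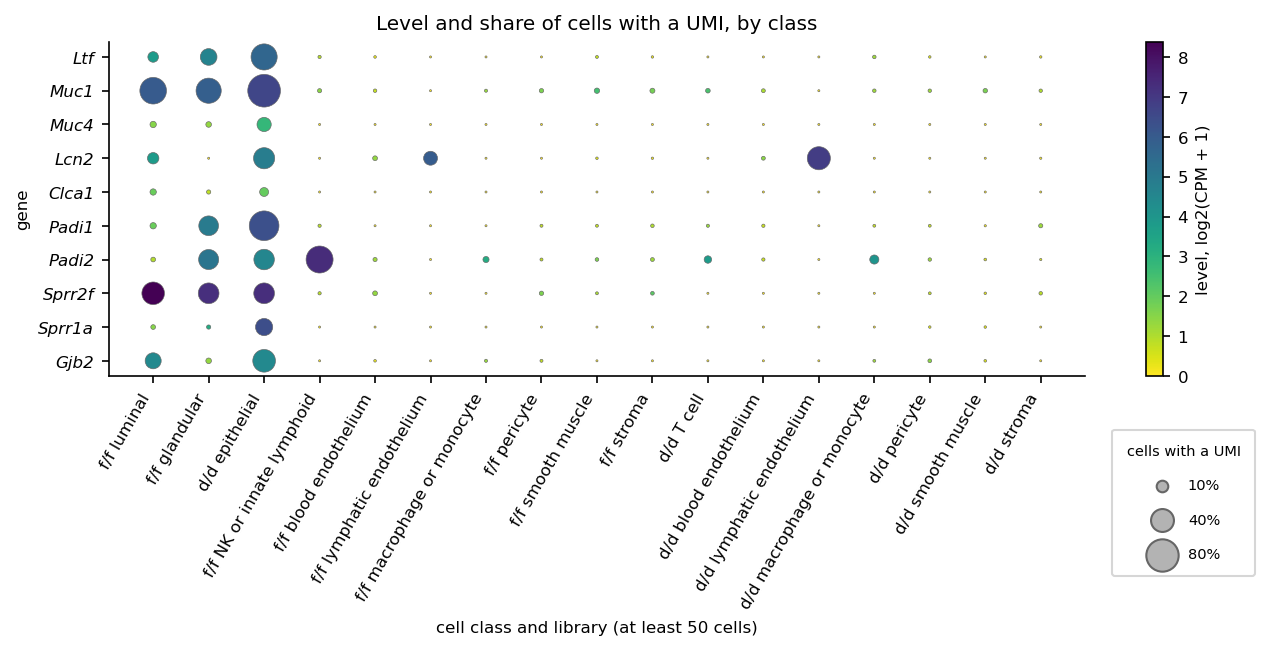
Level as log2(CPM + 1) (colour) and percent of cells with a UMI, not thinned (dot area), of the 10 genes (rows) in the 17 sets of at least 50 cells (columns). Outside epithelium, Lcn2 stands out in lymphatic endothelium of both libraries (61.5 and 119 CPM) and Padi2 in f/f NK or innate lymphoid cells (164 CPM).

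Most UMIs of these genes lay in epithelial cells, which supplied 5.11% of all f/f and 10.8% of all d/d UMIs. For Sprr2f the share was 81.3% and 93.8%, for Ltf 79.0% and 91.0%, and for Gjb2 86.7% and 85.6%. The exceptions were Padi2, with 14.6% and 51.9%, and Lcn2, with 32.6% and 61.5%. Lcn2 had 13 UMIs in 82 f/f lymphatic endothelial cells (61.5 CPM, 32.8 to 105) and 59 in 59 d/d ones (119 CPM, 90.6 to 153), a ratio of 1.93 (1.05 to 3.84). Padi2 had 185 UMIs in 201 f/f NK or innate lymphoid cells (164 CPM, 141 to 189) and 23 in 40 d/d ones (93.0 CPM, 59.0 to 140). In macrophages or monocytes Padi2 was at 8.65 CPM in f/f and 15.4 in d/d. In stroma the f/f and d/d levels were 2.35 and 0.999 CPM for Muc1 and 3.41 and 0.845 CPM for Sprr2f.

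Over the 17 sets, the genes with the closest profile (Pearson r of log2(CPM + 1), a description, since the sets share 2 libraries and only 3 of them are epithelial) were Krt7 for Ltf (r = 0.982), Tmprss2 for Muc1 (0.963), Crb3 for Sprr2f (0.980), Nfe2l3 for Padi1 (0.966) and Atp10b for Gjb2 (0.898). Krt7 is itself a marker by which epithelial cells were chosen, so its contrast with the other sets is partly built in. Such markers stayed eligible. An r over 0.9 was reached by 105 genes for Ltf, 105 for Muc1 and 122 for Sprr2f. It was reached by 20 for Padi1, 14 for Sprr1a and 0 for Lcn2, Padi2 and Gjb2. The genes named for Ltf, Muc1 and Sprr2f therefore have many others with a similar profile. Sprr1a and Padi1 were each among the 3 closest to the other (0.946), out of 6985 genes. The closest to Lcn2 was Ston2 (0.850) and to Padi2 Sema4a (0.891), the 2 genes with a source outside epithelium.

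The other estrogen response genes, a list of 34 without the 10, were read the same way. This list too was chosen with earlier results of these data known, so its counts beside those of all genes are a description. Over f/f luminal cells 15 of the 30 with enough UMIs were higher and 7 lower, beside 15.9% and 14.5% of all genes. Among the higher, Aqp8, Inhbb and Wnt4 had 0 f/f luminal UMIs and passed the minimum through d/d alone. The median log2 ratio was 0.95 and, with 0 counts set at the floor, 0.93, beside -0.01 for all genes. Sox9, a transcription factor of glands, was at 632 CPM in d/d against 22.5 (28.1, 18.8 to 43.9), the water channel Aqp5 at 92.0 against 2.81 (32.7, 11.1 to 159), the ESR1 target Greb1 at 49.5 against 1.87 (26.4, 7.21 to 219) and the cyclin Ccnd1 at 136 against 15.0 (9.06, 5.53 to 15.96). On the other side, the receptor Fgfr2 was at 51.5 against 276 CPM (0.187, 0.156 to 0.223), and the factors Klf4 (0.247), Klf5 (0.309) and Bcl3 (0.318) were lower as well. Over f/f glandular cells the ratios were 1.97 for Aqp5, 2.45 for Greb1 and 4.07 for Ccnd1. Those of Fgfr2 (0.706), Klf4 (0.603) and Klf5 (1.14) were within 2-fold there, and Bcl3 was higher, at 3.03 (1.53 to 6.83).

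Over f/f glandular cells 10 of 30 were higher and 1 lower, beside 10.1% and 11.0% of all genes, with a median log2 ratio of 0.51 beside -0.13. The EGF family ligand Areg was at 130 CPM against 14.8 (8.84, 5.61 to 14.8), Cebpb, a factor of proliferation and decidualization, at 297 against 50.5 (5.88, 4.58 to 7.66), the cell cycle inhibitor Cdkn1a at 98.2 against 14.0 (7.02, 4.39 to 12.0) and Sox9 at 3.52 times (3.08 to 4.05). The lower gene was the water channel Aqp8, at 5.75 against 17.9 CPM (0.322, 0.175 to 0.593). Over f/f luminal cells Areg was below 1, at 0.740 (0.626 to 0.877), and Cebpb near it, at 1.21 (1.06 to 1.39). Cdkn1a was higher there too, at 9.53 (5.27 to 19.2), and Aqp8 had 0 UMIs in f/f luminal and 25 in d/d cells. The receptor gene Esr1 was at 149 CPM in f/f luminal, 743 in f/f glandular and 418 in d/d cells, so d/d stood between the 2 f/f kinds. Over all f/f epithelial cells 10 of 31 were higher and 4 lower, beside 8.71% and 13.7% of all genes, so the lower count is near the background.

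**Figure D5:**
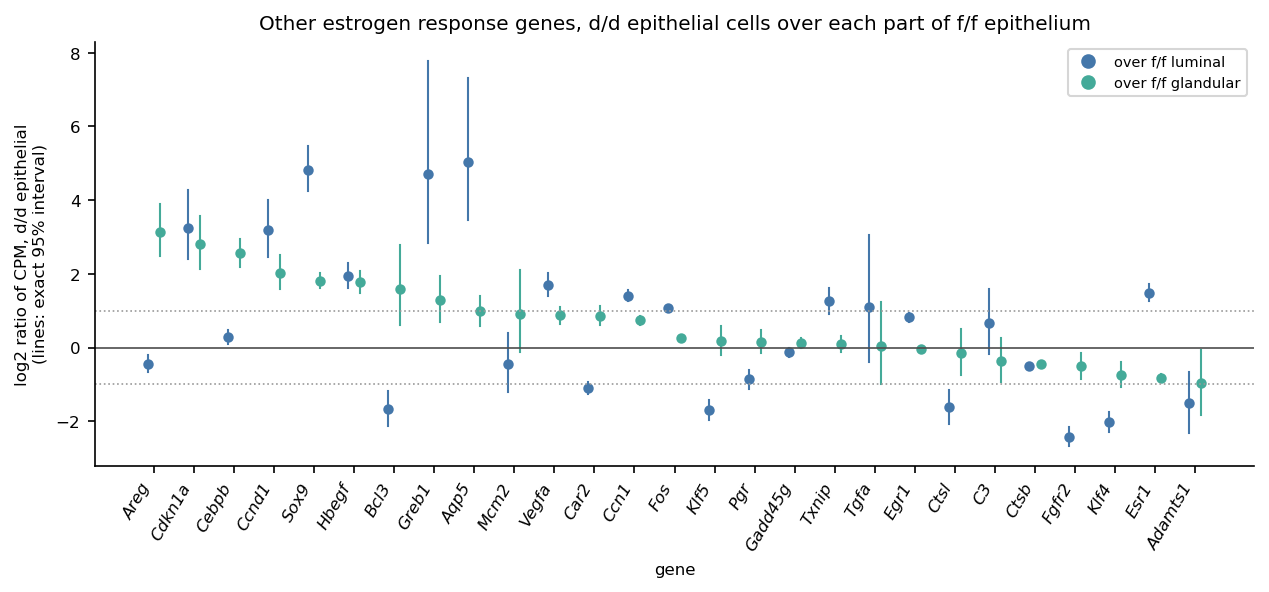
log2 CPM ratio of d/d epithelial cells over f/f luminal (blue) and f/f glandular cells (green) for 27 other estrogen response genes with at least 20 UMIs in both comparisons and none of the sides at 0; lines are exact 95% intervals and dotted lines mark 2-fold. Cdkn1a, Ccnd1, Sox9, Greb1 and Hbegf lie past 2-fold in both comparisons, and Fgfr2 and Klf4 lie past 2-fold on the lower side over luminal cells and within 2-fold over glandular cells.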

How the data were processed

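Droplet 3′ libraries of whole uterus were analysed, 1 per genotype. The deposited values are whole-number UMI counts for each gene in each barcode, not normalized. The genome build was mm10 and the counting tool Cell Ranger 3.0.1 per the submitters' processing notes, but cellranger 6.0.1 per the file headers. The genes and lists were chosen with earlier results of these data known. The marker thresholds were set after the marker counts were seen.

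Of 8164 f/f and 6661 d/d barcodes (55080123 and 44745031 UMIs), those with at least 1000 UMIs, 500 genes and at most 20% mitochondrial UMIs were kept. The barcodes with the highest Scrublet scores (scanpy 1.11.5), 0.8% per 1000 barcodes, were marked as doublets, which removed 515 and 348. Scrublet's own threshold would have marked 0 and 400. This left 7095 and 5977 cells. A cell took the class with the highest share of markers detected, at least 30%. Luminal cells had at least 10 luminal-marker UMIs and 2 times their glandular-marker UMIs, and glandular cells the reverse. Near the epithelial limit, 17 f/f and 6 d/d cells had 6 or 7 markers, and 29 and 13 had 4 or 5. A further 26 and 10 with at least 6 fell to another class or none. With at least 9 markers there were 66 f/f luminal, 68 f/f glandular and 127 d/d cells, and from Leiden clusters 139, 140 and 164, in place of 72, 95 and 138.

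UMIs were summed per set and divided by its total (CPM). Sums carry exact Poisson, shares Clopper-Pearson and ratios conditional exact intervals at 95%. Only the ratio intervals were tried on simulated data. These were Poisson counts per set, which lack the spread between cells, so coverage for genes held by few cells was not tested. The thinned share is the expected number of cells over all thinnings, rounded. Named from the other lists were up to 4 genes higher and 4 lower per comparison, ranked by the interval bound nearest 1, and the 3 closest profiles per gene with at least 100 epithelial UMIs, of which the text gives the first. The order of levels and the overlaps of genes in cells were described after the values were seen, as were Esr1 and Padi4. Scaling by TMM (edgeR 4.0.16) moved the median log2 ratio of all genes from -0.01 to 0.14 over luminal and from -0.13 to 0.09 over glandular cells.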

Additional observations from a re-analysis of the deposited data

How the results depend on the processing

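No paired analysis was possible because each genotype has 1 library, and for the same reason no replicate could be left out. Of 362 recomputed log2 ratios of the 10 genes, 339 stayed within the first value's interval, 23 moved beyond it and 0 reversed a called direction. Of 236 for called ratios, 12 fell under 2-fold. The settings with only d/d cells with glandular markers, without the richest cell and without cells with cycling-gene UMIs were chosen after seeing the data.

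Over f/f luminal cells the count of lower genes among the 10 went from 1 to 0 with totals without mitochondrial and ribosomal protein genes, with TMM scaling, with epithelial cells from Leiden clusters, without the cell richest in the gene on each side and with cells without Mki67, Cdk1 or Ube2c UMIs. Over f/f glandular cells it went from 0 to 1 at a 1.5-fold threshold. Over all f/f cells it went from 0 to 1 with only d/d cells with glandular markers, and the count of higher genes went from 5 to 3 in cells without cycling-gene UMIs. Of f/f luminal over glandular cells, the count of higher genes went from 2 to 1 with Leiden clusters, to 1 with at least 50 UMIs and to 4 with no minimum, and the count of lower genes went from 2 to 0 with at least 50 UMIs. For the other estrogen response genes over f/f glandular cells, the count of lower genes went from 1 to 2 with at least 9 epithelial markers, Leiden clusters, no minimum or only d/d cells with glandular markers, to 4 at 1.5-fold, to 5 with stromal CPM subtracted, and to 0 with the mean of cell CPM or at least 50 UMIs. The causes of these moves were not tested, apart from those that change the threshold, the minimum or the cells by construction. Depth limits the ratios that rest on 0 to 3 UMIs on 1 side, which include those of Muc4, Clca1, Lcn2 over glandular cells, Padi1, Padi2 and Sprr1a over luminal cells and Gjb2 over glandular cells.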

Other observations

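Among relatives of the 10 genes, the membrane mucin gene Muc20 had 32 UMIs in d/d epithelium (7.36 CPM) and 2 in all f/f epithelium (0.804 CPM), a ratio of 9.15 with a 95% interval of 2.33 to 78.8. Muc16 had 20 and 6 UMIs, and 0 of the 6 were in f/f luminal cells. The connexin gene Gja1 was at 6.44 CPM in d/d against 15.5 CPM in f/f glandular cells, a ratio of 0.415 (0.225 to 0.776). These genes were read with the same rule as the others.

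In f/f stroma, Sprr2f had 115 UMIs in 35 of 4659 cells, and 66 of them were in 1 cell, at 3943 CPM in that cell. In d/d stroma it had 11 UMIs in 11 of 1699 cells.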
